A study of Mus musculus with 16 samples.

Results

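The odorant receptor genes numbered Olfr1161 to Olfr1318 were examined as a group in sorted olfactory mucosa of mice. Membership follows from gene number, and the range of numbers was proposed with earlier results of these data known. The group held 123 of the 19505 genes measured, and 123 of the 1080 odorant receptor genes with a plain number. Each was found under its gene number in RefSeq's table for GRCm38.p6, where all 123 are protein-coding genes of chromosome 2. In that gene order they fell into 2 runs with no other protein-coding gene inside, one from Olfr1161 to Olfr1274 (88 members of 95 receptor genes) and one from Olfr1275 to Olfr1318 (35 of 37), separated by 119 other protein-coding genes.

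Odorant receptors are G protein-coupled receptors of the olfactory epithelium, and a mature olfactory sensory neuron as a rule expresses 1 receptor gene from 1 of its alleles. Odor binding activates the olfactory G protein, then adenylyl cyclase and a cyclic nucleotide-gated channel, and sustained activity raises transcription of genes such as S100a5. Each receptor thus marks its own small set of neurons. In bulk samples of this kind, fewer cells that express a receptor and less of its RNA per cell cannot be told apart.

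The mice were S100a5-tauGFP animals on C57BL/6, in which the S100a5 gene, coding for a calcium-binding protein of sensory neurons, drives a green fluorescent protein. All 24 mice, of both sexes and 7 to 12 weeks old, spent 40 h alone in chambers of clean air (flow 3.1 L/min), and pulses of 10 s every 20 min began after 26 h. The odor mice received whiskey lactone, an aroma compound of oak-aged spirits, and the vehicle mice received filtered air. Cells of 3 mice were pooled, and 4 odor and 4 vehicle pools were each sorted into 2 fractions, which gave 4 arrays in each of 4 groups. These were odor pools titled GFP+, odor pools titled GFP-, vehicle pools titled GFP+ and vehicle pools titled GFP-. The animals all carried the reporter, and arrays of mice without it were not analysed here.

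The titles and the cell type field of the labels named the fraction oppositely in all 16 arrays, so S100a5 was examined first. In the odor pools the log2 signal of S100a5 was 14.93, 15.24, 15.64 and 15.15 in the arrays titled GFP+, against 16.61, 16.55, 16.74 and 16.42 in the arrays titled GFP-. In the vehicle pools it was 15.15, 15.31, 15.64 and 15.01 in the arrays titled GFP+, against 16.59, 16.62, 16.60 and 16.23 in the arrays titled GFP-. In each of the 8 pools the array titled GFP+ thus had less S100a5 signal, with no overlap between the fractions. The log2 difference, titled GFP+ minus titled GFP- as throughout, was -1.34 ± 0.09 in odor pools (SE; limma, adjusted p = 2.07e-07) and -1.23 ± 0.09 in vehicle pools (limma, adjusted p = 4.78e-07). Groups are named here by their titles. If the cell type field is right instead, every difference between fractions changes sign. S100a5 itself did not pass between odor and vehicle in either fraction.

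Each member was measured by 1 feature of the array. Background was read from 5222 negative control features, whose median lay between 4.98 and 5.59 on the log2 scale. Between 103 and 118 members stood above that median on any 1 array, 92 did so on all 16 arrays and 4 (Olfr1164, Olfr1188, Olfr1230 and Olfr1314) on none. Precision is limited by 4 arrays a group. Features differ in brightness for reasons other than transcript level, so levels of different receptors are not compared with each other.

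The first question was how the transcripts of these receptors were split between the sorted fractions. In the odor pools 35 of the 123 members were higher in the arrays titled GFP+, 47 were lower and 41 did not pass an adjusted p of 0.05. Of all 19505 genes 12.8% were higher and 14.7% lower. The shares of 28.5% and 38.2% among the members were thus above those of all genes in both directions. The 957 other odorant receptors gave 22.5% higher and 50.2% lower. In the vehicle pools 40 members were higher, 42 lower and 41 did not pass, against 12.3% higher and 13.6% lower among all genes and 22.8% and 49.4% among the other receptors. The median log2 difference of the members was -0.22 in odor pools and -0.12 in vehicle pools. The medians of all genes were -0.15 and -0.14, and those of the other receptors -0.70 and -0.69. The genes just before the group by number, 117 measured receptors from Olfr987 to Olfr1160, had medians of -1.58 and -1.28, with 71 and 69 of them lower. These sets were set side by side without a test of their difference.

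The balance of the calls depended on how the arrays were scaled. Centring each array on its housekeeping genes gave 25 members higher and 75 lower in odor pools and 26 higher and 71 lower in vehicle pools. The 13 housekeeping genes measured differed between fractions themselves. Before centring, 7 were higher and 0 lower in odor pools, and 5 were higher and 1 lower in vehicle pools. B2m, for example, had a mean log2 signal of 15.53 in odor arrays titled GFP+, against 10.66 in odor arrays titled GFP-. Centring on the array median gave 35 higher and 58 lower in vehicle pools. These centrings shifted the median of all genes by -0.93 and -0.38 in odor pools and by -0.85 and -0.37 in vehicle pools. The shares of all genes called under them are not given here. The member median of the vehicle pools turned positive, at 0.14, when arrays were centred on mature neuron genes. Housekeeping centring turned the sign of 5 of the 82 called members in odor pools and of 4 of 82 in vehicle pools, all of them higher before it, such as Olfr1217 in odor pools (-0.25). Median centring, cyclic loess and mature neuron centring turned the sign of 0 called members, while small differences that did not pass often changed sign.

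Large differences were more often upward among the members and also among all genes, so this lean was not particular to the members. Among the members it did not hold under housekeeping centring. In odor pools 14 members were higher by 8-fold or more and 5 were lower by as much, against 2.94% and 0.461% of all genes (574 and 90 genes). In vehicle pools the counts were 17 and 2, against 2.68% and 0.420% of all genes (523 and 82 genes). Housekeeping centring gave 9 higher and 12 lower in odor pools and 10 higher and 15 lower in vehicle pools. It shifted the median of all genes by -0.93 and -0.85, and the shares of all genes at this cut under it are not given here. Of the 17 in vehicle pools, 14 belonged to the first run and 3 to the second.

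**Figure D1:**
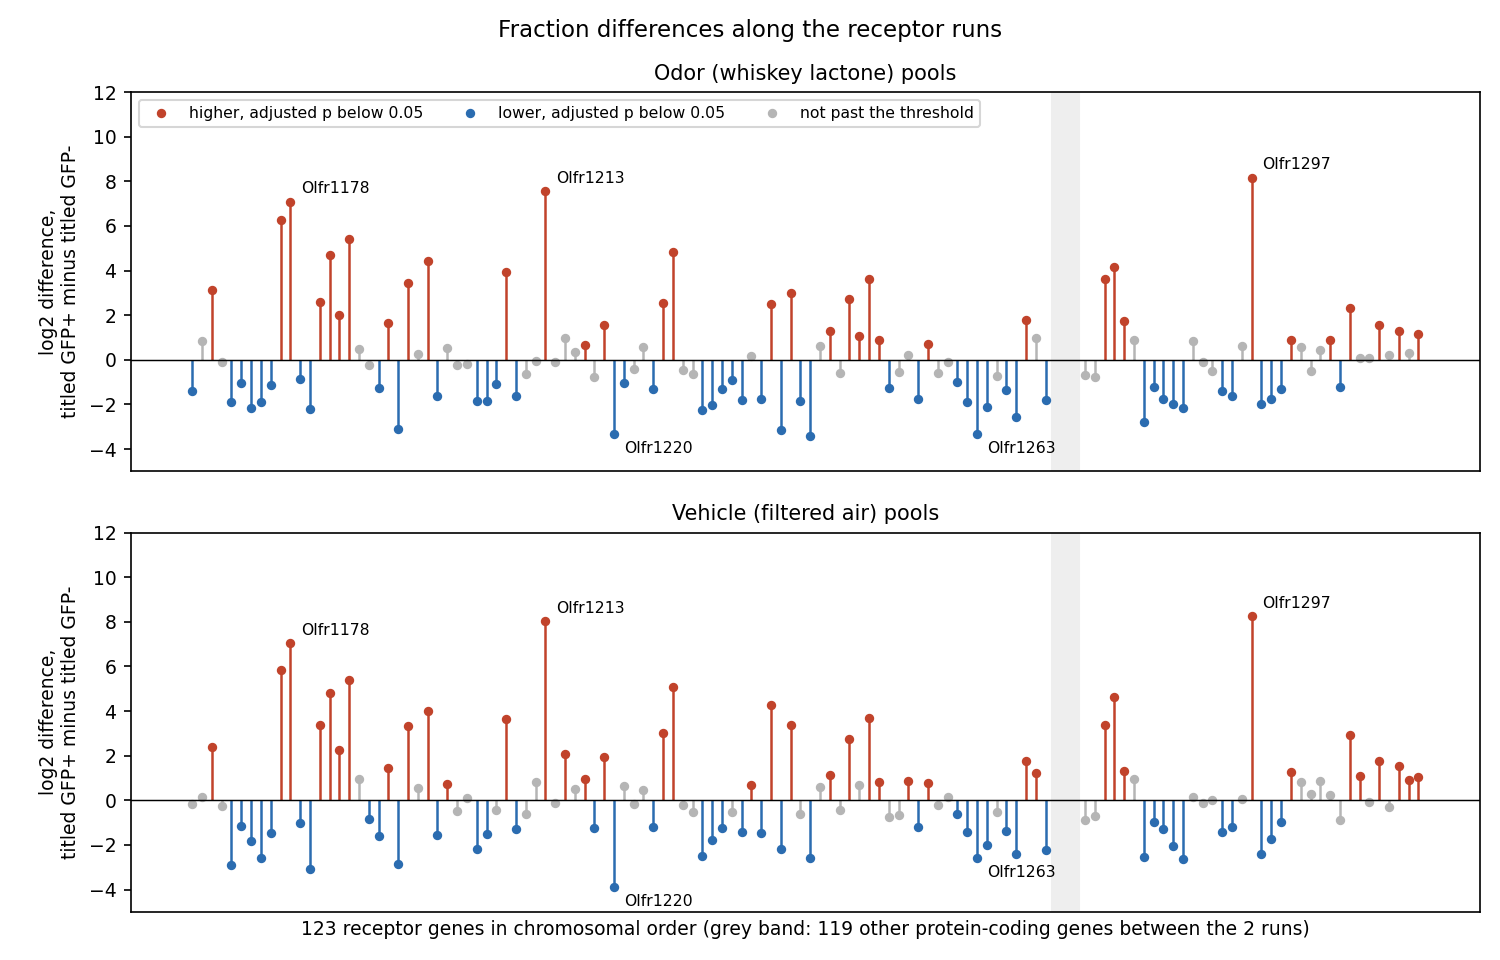
Log2 difference between the fractions, titled GFP+ minus titled GFP-, for the 123 receptor genes in chromosomal order, odor pools above and vehicle pools below; red points were higher and blue points lower at an adjusted p below 0.05 (limma), grey points did not pass. Tall upward differences such as those of Olfr1178, Olfr1213 and Olfr1297 stand in runs that also hold downward and small differences. The pattern is nearly the same in both panels.

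Olfr1297 had the largest difference of the group. Its log2 signal in the odor pools was 15.18, 14.85, 14.66 and 14.91 in the arrays titled GFP+, against 8.06, 5.76, 6.24 and 6.92 in the arrays titled GFP-. In the vehicle pools it was 15.10, 14.39, 15.20 and 14.91 in the arrays titled GFP+, against 7.76, 6.08, 6.37 and 6.34 in the arrays titled GFP-. The fractions were far apart in every pool, and the values of the arrays titled GFP- varied more among pools than those of the arrays titled GFP+. The fold of Olfr1297, higher in the arrays titled GFP+, was 285 in odor pools (log2 difference 8.16 ± 0.27, SE; limma, adjusted p = 1.89e-10) and 308 in vehicle pools (8.27 ± 0.27; limma, adjusted p = 1.72e-10). Among the 1080 receptors these differences ranked 2 and 3 from the highest.

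Olfr1213 followed. In odor pools its log2 signals were 12.74, 12.56, 13.28 and 13.84 in the arrays titled GFP+, against 4.88, 6.41, 6.53 and 4.40 in the arrays titled GFP-. In the vehicle pools they were 13.29, 12.83, 13.32 and 12.19 in the arrays titled GFP+, against 5.21, 4.41, 6.16 and 3.68 in the arrays titled GFP-. All arrays titled GFP+ were bright, whereas among the arrays titled GFP- 2 of 4 in odor pools and 1 of 4 in vehicle pools stood above the control median. Fitted on the values as they stand, Olfr1213 was 187-fold higher in odor pools (7.55 ± 0.40; limma, adjusted p = 1.41e-08) and 264-fold higher in vehicle pools (8.04 ± 0.40; limma, adjusted p = 7.85e-09).

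Olfr1178 had log2 signals of 11.66, 12.00, 12.17 and 12.46 in odor arrays titled GFP+, against 7.12, 3.79, 4.74 and 4.28 in odor arrays titled GFP-. In vehicle arrays it had 12.25, 11.58, 11.85 and 12.16 titled GFP+, against 6.72, 4.58, 3.97 and 4.37 titled GFP-. In each treatment replicate 1 held the highest value titled GFP-, the only array of its 4 above the control median. The log2 differences were 7.09 ± 0.52 in odor pools and 7.05 ± 0.52 in vehicle pools (limma, adjusted p = 2.87e-07 and 3.18e-07). Because these low values lie at background on most arrays, the exact folds of Olfr1213 and Olfr1178 carry that limit.

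Olfr1228 had the smallest SE among the 10 largest upward differences. It had log2 signals of 14.07, 14.41, 14.33 and 14.13 in odor arrays titled GFP+, against 9.62, 9.72, 9.30 and 8.99 in those titled GFP-, and was above background on every array. Its difference was 4.83 ± 0.15 in odor pools (28.4-fold) and 5.06 ± 0.15 in vehicle pools (33.3-fold; limma, adjusted p = 9.04e-11 and 6.25e-11). The other members among the 10 largest upward differences were Olfr1176 (6.25 ± 0.47 in odor and 5.85 ± 0.47 in vehicle pools), Olfr1184 (5.42 and 5.39), Olfr1182 (4.71 and 4.80), Olfr1198 (4.41 and 4.02) and Olfr1278 (4.18 and 4.62). Olfr1208 completed the odor list with 3.92 ± 0.28, and Olfr1241 the vehicle list with 4.25 ± 0.31. Each of these had 1 sign in all 4 pools of the treatment for which it is listed. Olfr1182 varied most, with pool differences of 2.60 to 6.18 in odor pools and 2.13 to 8.01 in vehicle pools. The remaining upward calls of odor pools ran from 3.63 for Olfr1252 down to 0.68 for Olfr1217.

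Olfr1220 led the downward differences in vehicle pools. In odor pools the log2 signals of Olfr1220 were 11.82, 11.96, 10.96 and 11.25 in the arrays titled GFP+, against 14.63, 15.49, 14.13 and 15.03 in the arrays titled GFP-. In the vehicle pools they were 8.96, 10.74, 10.75 and 10.31 in the arrays titled GFP+, against 13.31, 14.30, 13.58 and 15.19 in the arrays titled GFP-. The fractions did not overlap in either treatment, and all 16 values were well above the control median. Olfr1220 was 10.0-fold lower in the arrays titled GFP+ of odor pools (-3.32 ± 0.25; limma, adjusted p = 4.35e-07) and 15.0-fold lower in those of vehicle pools (-3.90 ± 0.25; limma, adjusted p = 1.05e-07).

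Olfr1246 had the largest downward difference in odor pools. Its log2 signal there was 6.38, 8.02, 8.11 and 7.28 in the arrays titled GFP+, against 10.53, 11.60, 10.99 and 10.30 in the arrays titled GFP-, a difference of -3.41 ± 0.24 (limma, adjusted p = 1.78e-07). In vehicle pools the difference was -2.60 ± 0.24 (limma, adjusted p = 2.38e-06). Olfr1263 had log2 signals of 9.46, 10.68, 10.22 and 9.75 in odor arrays titled GFP+, against 13.67, 13.05, 12.92 and 13.79 in those titled GFP-. No array titled GFP+ of either gene reached the lowest array titled GFP- of the same treatment. The differences of Olfr1263 were -3.33 ± 0.37 in odor and -2.58 ± 0.37 in vehicle pools (limma, adjusted p = 1.53e-05 and 0.000168).

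Olfr1242, Olfr1195, Olfr1281, Olfr1270, Olfr1231, Olfr1180 and Olfr1168 made up the rest of the 10 largest downward differences in odor pools, from -3.14 for Olfr1242 to -2.17 for Olfr1168. In vehicle pools Olfr1166 (-2.91), Olfr1286 (-2.63) and Olfr1170 (-2.59) took the places of Olfr1242, Olfr1270 and Olfr1168. The remaining downward calls of odor pools ran from -2.15 for Olfr1286 to -0.87 for Olfr1179. Of the 42 lower calls in vehicle pools, that of Olfr1188 (-0.82) has no interpretable fold, because all its arrays lay at or below the control median.

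**Figure D2:**
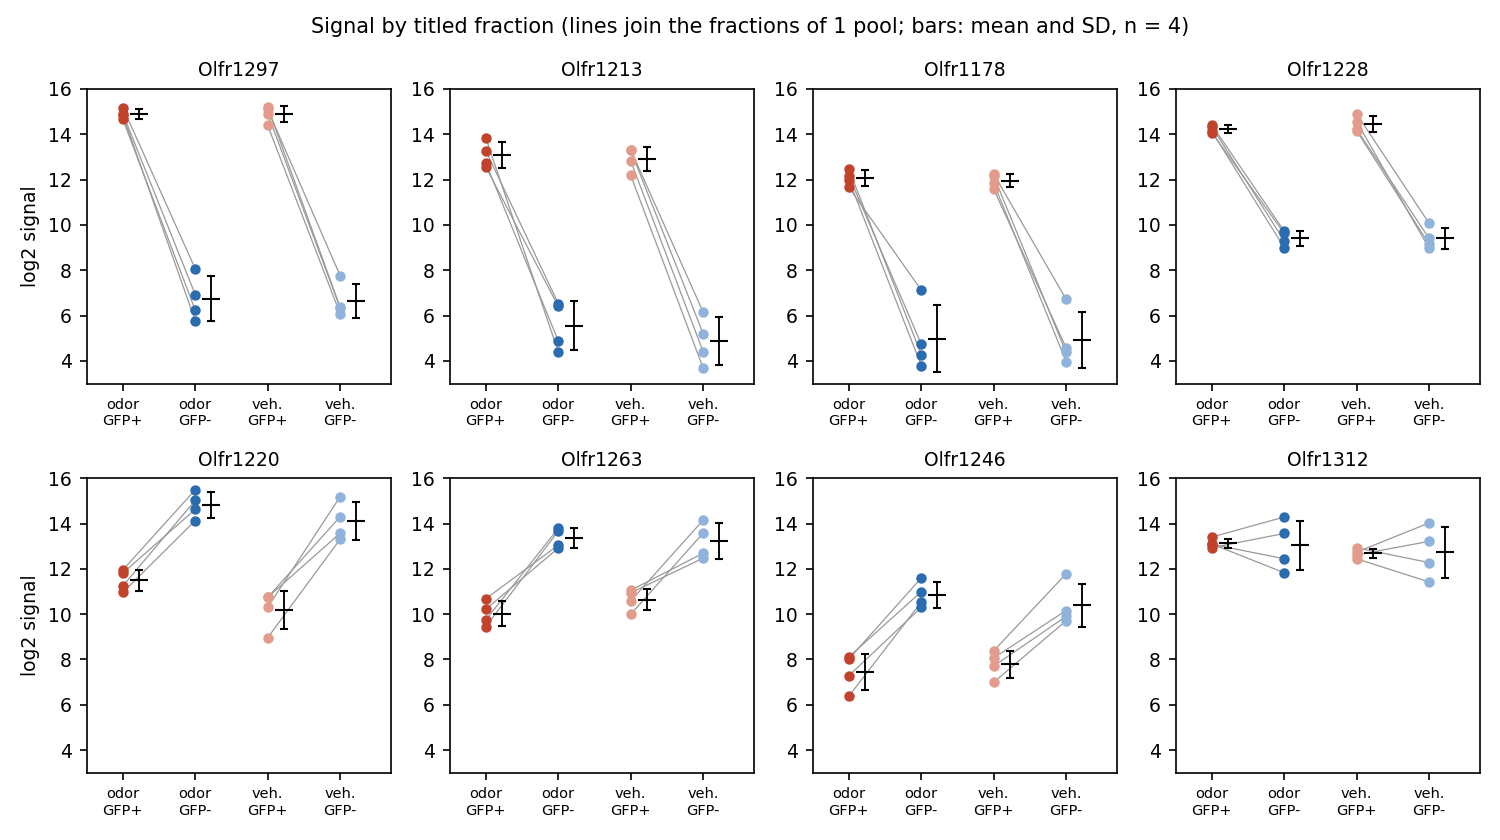
Log2 signal (y axis) of 8 receptor genes in the 4 groups of 4 arrays (x axis), each point 1 array, lines joining the fractions of 1 pool, bars the mean and SD. Olfr1297, Olfr1213, Olfr1178 and Olfr1228 were far higher in the arrays titled GFP+ of every pool, Olfr1220, Olfr1263 and Olfr1246 were lower in every pool, and the pools of Olfr1312 ran both ways.

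The stretch before the start of a gene can be compared for members that moved in opposite directions. RefSeq sequences of assembly GRCm38.p6 gave a window of 250 bases before the gene start for 108 of the 123 members. Windows are printed for the 2 members with the largest upward differences, and for the neighbours Olfr1220, with the largest downward difference in vehicle pools, and Olfr1221, with the smallest p of the members between odor and vehicle in the arrays titled GFP-. All 4 genes lie on the minus strand. The windows are chr2:111622073-111622322 for Olfr1297, chr2:88980268-88980517 for Olfr1213, chr2:89097964-89098213 for Olfr1220 and chr2:89112511-89112760 for Olfr1221. They are written 5′ to 3′ on the gene's strand, and capitals mark matches to the homeodomain motif TAATTA.
Olfr1297: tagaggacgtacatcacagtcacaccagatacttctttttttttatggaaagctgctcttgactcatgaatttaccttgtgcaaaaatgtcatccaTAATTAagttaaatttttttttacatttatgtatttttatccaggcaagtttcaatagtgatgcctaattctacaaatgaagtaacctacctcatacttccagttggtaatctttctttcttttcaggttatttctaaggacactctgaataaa
Olfr1213: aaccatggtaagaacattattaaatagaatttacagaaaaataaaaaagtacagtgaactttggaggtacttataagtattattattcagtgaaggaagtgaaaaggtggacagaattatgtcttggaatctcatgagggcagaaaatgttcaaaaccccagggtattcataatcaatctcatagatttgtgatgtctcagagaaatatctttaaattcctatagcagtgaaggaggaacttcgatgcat
Olfr1220: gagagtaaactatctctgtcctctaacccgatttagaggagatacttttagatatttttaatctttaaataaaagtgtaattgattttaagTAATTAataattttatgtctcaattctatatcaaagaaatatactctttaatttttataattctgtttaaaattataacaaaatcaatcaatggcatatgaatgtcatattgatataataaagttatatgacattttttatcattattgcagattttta
Olfr1221: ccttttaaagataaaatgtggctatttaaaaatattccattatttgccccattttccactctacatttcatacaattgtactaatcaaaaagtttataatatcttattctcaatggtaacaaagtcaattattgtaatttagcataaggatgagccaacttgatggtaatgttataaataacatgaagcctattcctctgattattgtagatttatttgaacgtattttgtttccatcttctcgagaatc
Olfr1297 held 1 match, beginning 154 bases before the gene start, and Olfr1220 held 1, beginning 159 bases before it, while the windows of Olfr1213 and Olfr1221 held none. The gene models of Olfr1297, Olfr1220 and Olfr1221 are 939, 1026 and 936 bases long and that of Olfr1213 is 7314 bases long. A model no longer than the coding sequence starts at the coding start, so the windows of the 3 short models may not lie before the transcription start.

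TAATTA reads the same on both strands. It occurred in 29 of the 108 windows (26.9%), in 137 of 813 windows of other receptors (16.9%) and in 1325 of 27025 windows of all genes (4.90%). Among the members higher in both treatments 12 of 32 windows held it, among those lower in both 10 of 34 and among the other members 7 of 42. The Olf/Ebf-type motif, searched on both strands, was in 0 of the 108 windows, 0.492% of those of other receptors and 0.788% of all windows. The windows of the members averaged 31.2% G and C, those of other receptors 35.1% and those of all genes 53.0%. A match is a match of letters and not a measured binding site, and the part of base composition in these shares was not tested.

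Genes that neighbour each other on the chromosome went in the same direction in some pairs and in opposite directions in others. The number of opposite pairs that unrelated neighbours would give was not computed. There were 121 pairs of members adjacent in a run, and both genes were called in 56 of them in each treatment. In odor pools 10 of these pairs were higher together, 24 lower together and 22 opposite. In vehicle pools 12 were higher together, 20 lower together and 24 opposite. The gap in log2 difference between neighbours had a median of 1.55 in odor and 1.76 in vehicle pools and was over 3 in 30 and 33 pairs. Across the 121 pairs, which share genes and arrays, Pearson's r of the neighbours' differences was 0.13 in odor pools and 0.10 in vehicle pools.

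The neighbours of Olfr1297, Olfr1213 and Olfr1241 included genes called in the opposite direction and genes that did not pass. Elsewhere neighbours were higher together, such as Olfr1176 and Olfr1178 (6.25 and 7.09 in odor pools). Beside Olfr1297, with its difference of 8.16 in odor pools, Olfr1298 was lower (-1.98 ± 0.31; limma, adjusted p = 0.000322). Olfr1295 on the other side, at 0.60 ± 0.33, did not pass (limma, adjusted p = 0.193). Beside Olfr1213 neither neighbour passed in odor pools, with Olfr1212 at -0.04 (95% confidence interval -0.68 to 0.59) and Olfr1214 at -0.11 (-0.50 to 0.28). Olfr1214 had log2 signals of 5.03 to 6.15 over all 16 arrays, near the control median, whereas Olfr1212 lay well above it. Olfr1240 was lower (-1.76 ± 0.12 in odor and -1.49 ± 0.12 in vehicle pools) and Olfr1242 was lower (-3.14 and -2.17), while Olfr1241 between them was higher (2.52 ± 0.31 and 4.25 ± 0.31).

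The 5 members with the brightest features, shown because background limits them least, also differed in direction. Olfr1264 had log2 signals of 14.88, 14.97, 15.34 and 15.86 in odor arrays titled GFP+, against 17.41, 17.12, 17.48 and 17.42 in those titled GFP-. It was 4.28-fold lower in odor pools (-2.10 ± 0.16; limma, adjusted p = 4.43e-07) and 3.98-fold lower in vehicle pools. Olfr1193 was higher, by 1.63 ± 0.31 in odor and 1.45 ± 0.31 in vehicle pools (limma, adjusted p = 0.00134 and 0.00335). Olfr1219 was higher by 1.54 ± 0.19 and 1.93 ± 0.19 (limma, adjusted p = 3.86e-05 and 5.21e-06). Olfr1222 and Olfr1197 did not pass in either treatment, with -0.41 ± 0.24 and -0.14 ± 0.24 for Olfr1222 and 0.27 ± 0.25 and 0.55 ± 0.25 for Olfr1197. Olfr1219, Olfr1220, Olfr1221 and Olfr1222 are consecutive members, and in vehicle pools Olfr1219 was higher, Olfr1220 lower and the other 2 did not pass.

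At the other end stood 4 members above background on every array whose difference, averaged with its sign over both treatments, lay nearest 0. Olfr1312 had log2 signals of 12.93, 13.10, 13.08 and 13.41 in odor arrays titled GFP+, against 13.56, 11.83, 12.45 and 14.29 in those titled GFP-. Its arrays titled GFP+ lay close together, and those titled GFP- lay on both sides of them. The difference was 0.10 (95% confidence interval -0.70 to 0.90) in odor pools and -0.05 (-0.85 to 0.75) in vehicle pools. Olfr1260 had -0.10 (-0.80 to 0.60) and 0.16 (-0.54 to 0.86), and Olfr1202 had -0.20 (-0.89 to 0.49) and 0.09 (-0.60 to 0.78). Olfr1306 had -0.48 (-0.86 to -0.11) and 0.30 (-0.08 to 0.67), and neither passed over all genes. The small mean of Olfr1306 thus came from opposite signs, and Olfr1222 differed less in each treatment. The intervals are wide, so equality of the fractions is not shown.

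The pattern across the members was nearly the same in both treatments. Higher calls in both treatments were made for 33 members and lower calls in both for 40, and 0 members were called in opposite directions. A call in the same direction in both treatments was made for 19.7% of all genes. Of the other members 9 were called in odor pools only, 9 in vehicle pools only and 32 in neither. A difference of 1 sign in all 8 pools was found for 70 members, 31 upward and 39 downward (25.2% and 31.7%), against 12.5% and 16.5% of all genes. Among the other odorant receptors these shares were 21.3% and 47.0%. Odor and vehicle pools share no mice, and across the 123 members the 2 sets of differences had Pearson's r of 0.979 and Spearman's rho of 0.968. The other odorant receptors had 0.980 and 0.969, and all genes 0.966 and 0.745, so this likeness was not particular to the members. This is a description over genes measured on the same arrays, with no p. The median size of the gap between a member's 2 differences was 0.31.

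**Figure D3:**
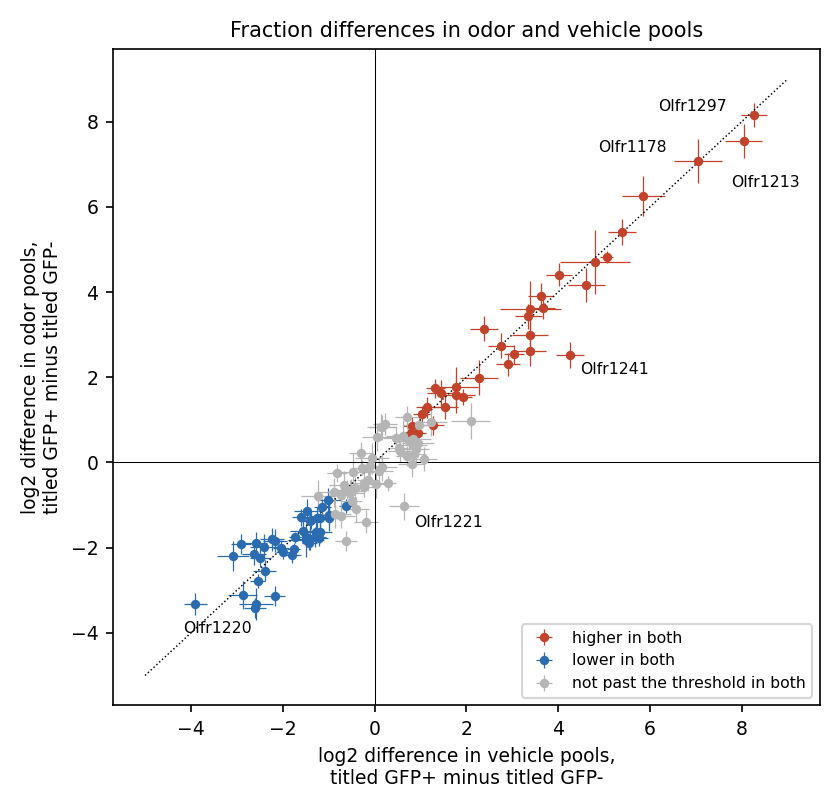
Log2 difference between the fractions in odor pools (y axis) against that in vehicle pools (x axis) for the 123 receptor genes, with bars of 1 SE; red genes were higher in both treatments, blue genes lower in both, grey genes the rest, and the dotted line marks equality. The 33 red and 40 blue genes follow the line, while Olfr1241 and Olfr1221 lie below it.

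Other cell types moved with the fractions, and their part in the receptor differences was not tested. All 7 neutrophil genes measured were higher in the arrays titled GFP+ in both treatments (median log2 differences 8.62 in odor and 8.78 in vehicle pools). Their mean log2 signal ran from 13.9 to 16.1 in odor arrays titled GFP+, against 5.97 to 7.48 in odor arrays titled GFP-, and from 14.6 to 15.6 in vehicle arrays titled GFP+, against 6.15 to 7.65 in vehicle arrays titled GFP-. Camp, a granule peptide gene, did not exceed the control median of any array titled GFP-. All 4 macrophage genes, all 4 sustentacular genes, all 3 microvillar genes and 3 of 4 immature neuron genes were likewise higher in both treatments. The 3 basal cell genes Krt5, Krt14 and Trp63 did not exceed the control median on any array of either fraction. At that background level 1 of them was called lower in odor pools and 0 in vehicle pools, which is not read as a change. Of the 10 mature neuron genes 3 were lower in odor pools and 4 in vehicle pools, with 0 higher. Median centring gave 9 and 10 of them lower and housekeeping centring 10 in both treatments, while centring on these genes themselves gave 1 lower in odor pools and 2 higher and 1 lower in vehicle pools. Between odor and vehicle, 0 genes of these lists passed in either fraction (limma). Omp, the olfactory marker protein of mature neurons, had log2 signals of 18.43 to 18.60 in odor arrays titled GFP+, against 18.60 to 18.83 in odor arrays titled GFP-, and did not pass (limma, adjusted p = 0.0667).

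Genes of the pathway through which these receptors signal were lower in the arrays titled GFP+ or did not pass. Of 18 such genes 10 were lower in odor pools and 9 in vehicle pools, with 0 higher, and their medians were -0.24 and -0.27, against -0.15 and -0.14 for all genes. Median centring gave 17 and 18 of them lower, and housekeeping centring 18 in both treatments. Cyclic loess gave 1 higher in each treatment, and mature neuron centring 1 higher and 3 lower in odor pools and 3 higher and 3 lower in vehicle pools. The phosphodiesterase gene Pde1c had the largest difference (-0.80 ± 0.09 in odor and -0.81 ± 0.09 in vehicle pools; limma, adjusted p = 2.60e-05 and 2.39e-05). The calcium-activated chloride channel gene Ano2 stood at -0.47 ± 0.06 and -0.48 ± 0.06, and the exchanger gene Slc24a4 at -0.48 ± 0.09 and -0.46 ± 0.09. Pde4a, which degrades cyclic AMP, stood at -0.42 ± 0.09 and -0.53 ± 0.09. The receptor chaperone gene Rtp1 did not pass in either treatment.

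The next question was whether whiskey lactone changed how a receptor was split between the fractions. The fraction difference in odor pools minus that in vehicle pools passed for 0 of 123 members and for 0.00513% of all genes (limma, adjusted p of 0.05). At an unadjusted p of 0.05 there was 1 member with a positive value and there were 8 with a negative value, against 1.61% and 1.66% of all genes.

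Olfr1241 had the smallest p of the members. In the arrays titled GFP+ its log2 signal was 9.30, 9.16, 9.37 and 11.25 in odor pools, against 12.06, 10.92, 11.63 and 11.50 in vehicle pools. In the arrays titled GFP- it was 8.24, 6.63, 6.59 and 7.54 in odor pools, against 7.78, 6.81, 7.72 and 6.77 in vehicle pools. Odor pools 1 to 3 were lower than all vehicle pools in the arrays titled GFP+, odor pool 4 lay among the vehicle pools, and the arrays titled GFP- overlapped. The fraction difference of Olfr1241 was smaller in odor pools by 1.73 on the log2 scale (-1.73 ± 0.43; limma, unadjusted p = 0.00159, adjusted p = 0.999).

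Olfr1221 followed (-1.67 ± 0.45; limma, unadjusted p = 0.00265, adjusted p = 0.999). Its fraction difference passed in odor pools (-1.03 ± 0.32; limma, adjusted p = 0.0290), with a negative value in 3 of 4 pools. In vehicle pools it was 0.64 ± 0.32 and did not pass (limma, adjusted p = 0.156). The odor call was lost without odor replicate 2, 3 or 4 (adjusted p = 0.117, 0.114 and 0.111) and after cyclic loess (adjusted p = 0.0743). Olfr1245 had the next smallest p (-1.23 ± 0.33; limma, unadjusted p = 0.00294, adjusted p = 0.999). The smallest p with a positive value belonged to Olfr1166 (1.00 ± 0.32, unadjusted p = 0.00795), followed by Olfr1170 (0.71) and by Olfr1188 (0.57), which lay at background.

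Odor and vehicle were then compared within the arrays titled GFP-, the fraction with the higher S100a5 signal. By limma with the pool as a random block, 0 of 123 members passed, and so did 0 of all genes. At an unadjusted p of 0.05 there were 11 members higher and 3 lower, against 3.41% and 2.47% of all genes. Odor and vehicle pools that carry 1 number deviated together in this fraction, with correlations of 0.198 to 0.279 over all genes in the 4 pairs. With the number as a block, 2 members passed, Olfr1221 and Olfr1245, both higher in odor pools, and 0.0769% of all genes passed. Both fractions come from the same pools, and pairing by number was not assumed in the arrays titled GFP+. Whether the numbers pair pools was thus not settled.

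Olfr1221 had log2 signals of 7.42, 8.40, 8.52 and 8.40 in odor arrays titled GFP-, against 5.0, 6.42, 5.30 and 7.13 in vehicle arrays titled GFP-. Every odor array exceeded every vehicle array, and 2 of the 4 vehicle arrays lay at or below the control median. The log2 difference was 2.22 ± 0.40, or 4.67-fold (limma, adjusted p = 0.157), and the differences between pools of the same number ran from 1.26 to 3.22. With the block the difference was 2.22 ± 0.26 (limma, adjusted p = 0.00694). The blocked call was lost without replicate 1 (2.16, adjusted p = 0.0738) or replicate 2 (2.30, adjusted p = 0.0643) and was held without replicate 3 (1.89, adjusted p = 0.0172) or replicate 4 (2.54, adjusted p = 0.00171).

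Olfr1245 had log2 signals of 8.34, 9.32, 8.14 and 7.13 in odor arrays titled GFP-, against 5.92, 6.76, 6.25 and 6.42 in vehicle arrays titled GFP-. The groups did not overlap, and odor replicate 4 lay closest to the vehicle arrays. The log2 difference was 1.89 ± 0.44, or 3.71-fold (limma, adjusted p = 0.402), and 1.89 ± 0.27 with the block (limma, adjusted p = 0.0236). The blocked call was lost without replicate 1, 2 or 3 (adjusted p = 0.210, 0.200 and 0.101). Without replicate 4 the blocked difference of Olfr1245 was 2.29 (adjusted p = 0.00126).

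Of the other members in this fraction, Olfr1161 had log2 signals of 9.0, 8.45, 9.01 and 8.22 in odor arrays, against 6.96, 6.07, 7.82 and 8.13 in vehicle arrays, and the groups did not overlap. Its difference of 1.43 ± 0.41 did not pass (limma, adjusted p = 0.627; 0.159 with the block). On the lower side Olfr1202 stood at -0.96 ± 0.39, Olfr1204 at -1.06 ± 0.45 and Olfr1188 at -0.49, and none of the 3 passed in either fit. Without replicate 4 the blocked fit also called Olfr1161 (1.87, adjusted p = 0.0112) and Olfr1204 (-1.33, adjusted p = 0.0308). Neither passed in the blocked fits without replicate 1, 2 or 3. In all, 5 members were higher and 2 lower without replicate 4, and the share of all genes called by that fit is not given here. Groups without overlap were found for 5 members higher in odor arrays and 1 lower, which is 4.88% of the members, against 4.45% of all genes. The share among members was thus near that of all genes. Olfr1297 and Olfr1213, which marked the opposite fraction, did not pass here (0.11 ± 0.39 and 0.69 ± 0.50).

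**Figure D4:**
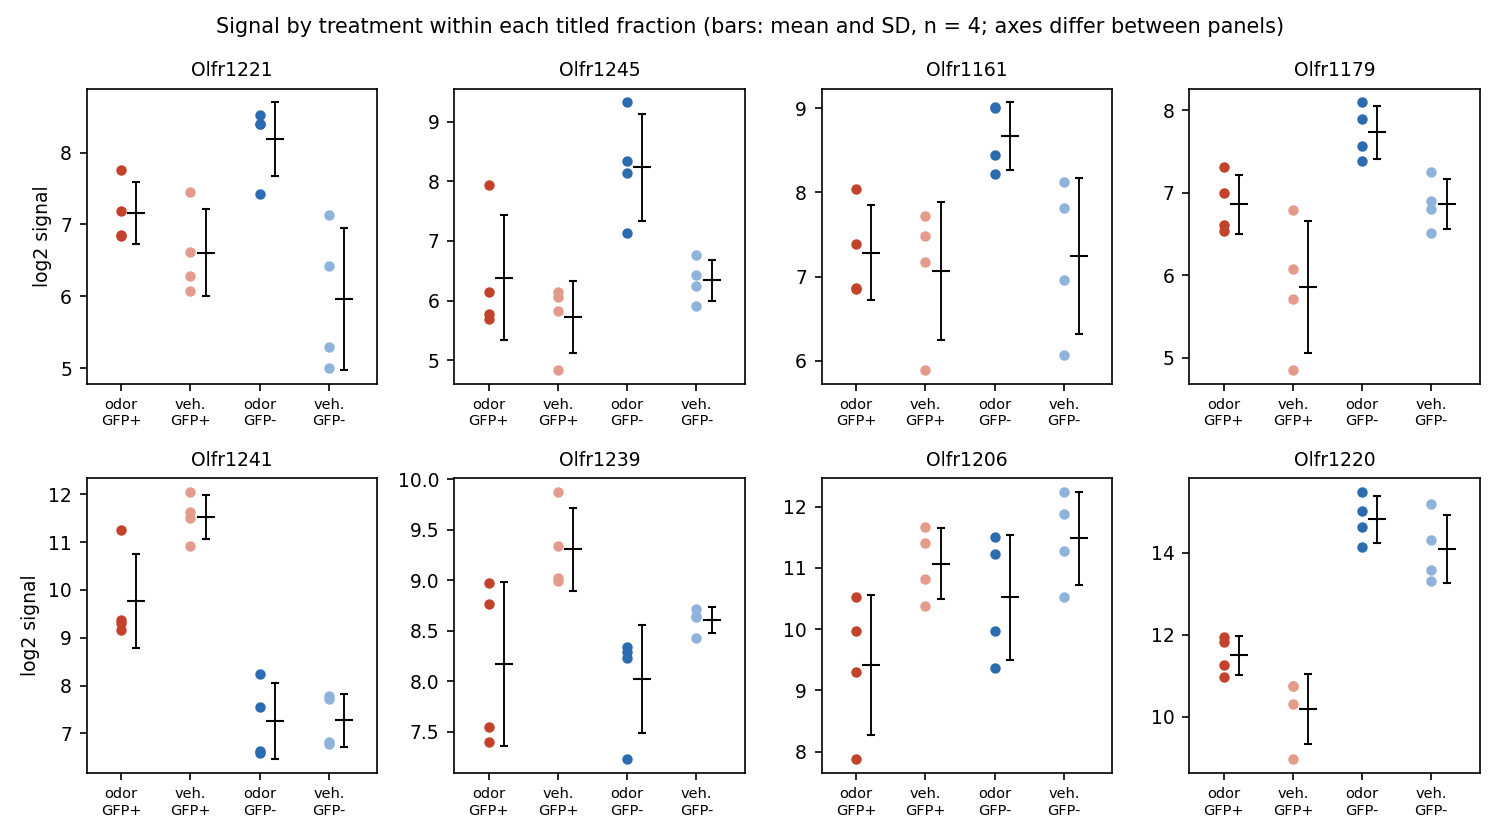
Log2 signal (y axis, scaled per panel) of 8 receptor genes by group (x axis), with odor left of vehicle within each titled fraction, each point 1 array and bars the mean and SD. Olfr1221, Olfr1245, Olfr1161 and Olfr1179 were higher in all odor arrays titled GFP- than in any vehicle array titled GFP-, whereas Olfr1241 was lower in 3 of 4 odor arrays titled GFP+.

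In the arrays titled GFP+ 0 of 123 members passed between odor and vehicle (limma), against 0.00513% of all genes. At an unadjusted p of 0.05, 8 members were higher and 12 lower, against 2.79% and 2.09% of all genes. Olfr1241, whose values are given above, had the smallest p of the members (-1.76 ± 0.43, or 3.38-fold lower; limma, adjusted p = 0.702). In the fit without both arrays of odor replicate 4 the difference was -2.25 and passed (limma, adjusted p = 0.0370). The share of all genes called by that fit is not given here.

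Olfr1239 had log2 signals of 7.40, 7.54, 8.76 and 8.97 in odor arrays titled GFP+, against 8.99, 9.88, 9.34 and 9.02 in vehicle arrays titled GFP+. All odor arrays lay below all vehicle arrays, although the highest odor value nearly reached the lowest vehicle value. The difference was -1.14 ± 0.32 (limma, adjusted p = 0.789). Olfr1206 had 9.31, 7.87, 9.97 and 10.53 in odor arrays, against 11.66, 11.41, 10.82 and 10.38 in vehicle arrays, and the groups overlapped (-1.65 ± 0.51; limma, adjusted p = 0.874).

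On the upper side Olfr1220 stood at 1.31 ± 0.40, Olfr1179 at 1.00 ± 0.31 and Olfr1223 at 1.00 ± 0.34 in the arrays titled GFP+ (limma, adjusted p = 0.874, 0.887 and 0.975). The lowest odor value of Olfr1220, 10.96, exceeded the highest vehicle value, 10.75, although its own fraction difference stayed negative in both treatments. Groups without overlap were found for 3 members higher and 3 lower in odor arrays, which is 4.88% of the members, against 2.38% of all genes. Olfr1213 stood at 0.20 ± 0.50 and Olfr1297 at -0.0027 ± 0.39 in this fraction, and neither passed.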

How the data were processed

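Sorted cells were profiled on 16 Affymetrix arrays. The deposited values are log2 signals, which the authors computed in Expression Console, per the submitters' processing notes. The sources used here give neither its normalization nor its background step, and the scale was inferred from the values. The platform annotation gave 19572 of 28846 features a gene, and keeping each gene's brightest feature left 19505 genes, without a filter on dim ones.

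Comparisons were made in limma 3.58.1 (R 4.3.3; moderated by eBayes with trend), two-sided. P-values were adjusted by Benjamini-Hochberg over all genes, at a threshold of 0.05. Fractions were compared within pools, entered as a fixed block over the 16 arrays, as was the change of that difference with odor (6 residual degrees of freedom). For odor against vehicle in 1 fraction, pools entered as a random block (correlation 0.164, 12 residual degrees of freedom). The model was tested on simulated data with normal noise around each pool's mean. Of 100 changes of size 1 on the log2 scale, it recovered 83 in the fraction difference of odor pools. It recovered 47 in the difference between treatments and 53 between odor and vehicle in the arrays titled GFP+. At size 2 it recovered 100, 98 and 99 of 100. Among the genes left unchanged it made 15, 9 and 23 false calls in these comparisons, in the same order. Titles gave groups and numbers, and each replicate is its own pool of mice. In the arrays titled GFP-, deviations of same-numbered odor and vehicle pools correlated by 0.198 to 0.279, over 0.1 in every pair. The number was therefore used as a block there. The range was 0.0787 to 0.410 in the arrays titled GFP+, where pairing was not assumed. Both fractions come from the same pools, so a pairing by number would hold in both or in neither. Whether numbers pair pools was thus not settled, and calls with this block carry that limit.

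The members, gene lists and rule for named genes were chosen with earlier results of these data known. The rule named S100a5, the 4 members Olfr1221, Olfr1241, Olfr1297 and Olfr1213 with their neighbours, the 10 largest fraction differences in each direction, the 4 smallest, the 5 brightest members, the 3 smallest p in each direction of the other comparisons and up to 4 signal transduction genes. Omp, Rtp1, Camp and the range limits were named outside it. Protein sequences were not used here. Alternatives were other scalings, blocks and filters, no variance trend, the mean of a gene's features, and omission of each replicate. The blocked fits without 1 replicate number were added after seeing the data.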

Additional observations from a re-analysis of the deposited data

Results flagged for a closer look

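Of 188 groups of 4 arrays of the named receptors that were examined, 9 held 1 array far from the other 3 by Dixon's test, where chance gives about 1 in 20. The count is thus near that of chance, and no array listed below is shown to be aberrant. Olfr1241 had a log2 signal of 11.25 in odor replicate 4 titled GFP+, against 9.17 to 9.37 in the other odor arrays of that title. Its odor comparison in that fraction passed only when this pool was left out with both arrays, and the part of the single array was not tested. Olfr1221 had 7.42 in odor replicate 1 titled GFP-, against 8.40 to 8.52 in the other arrays of its group. Olfr1239 had 7.22 in odor replicate 2 titled GFP-, against 8.23 to 8.34. Olfr1176 had 4.50 in vehicle replicate 4 titled GFP-, against 8.85 to 9.20, and this array was the only one of the gene at background. Olfr1260 had 12.60 in vehicle replicate 2 titled GFP+, against 11.71 to 11.72.

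The other 4 such arrays were odor arrays titled GFP+. Olfr1166 had 5.61 in replicate 4, against 6.51 to 6.58, and Olfr1270 had 8.44 in replicate 4, against 6.63 to 6.87. Olfr1195 had 7.71 in replicate 1, against 9.21 to 9.27, and Olfr1286 had 4.63 in replicate 1, against 6.29 to 6.51.

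Olfr1306 was the only member whose fraction difference was negative in all 4 odor pools (-0.73 to -0.25) and positive in all 4 vehicle pools (0.05 to 0.50). The odor minus vehicle difference of these was -0.78 and did not pass (limma, unadjusted p = 0.00713, adjusted p = 0.999).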

How the results depend on the processing

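Besides the values as reported, 25 other settings were run. The number of members called higher or lower between fractions stayed within 1.5 times under every setting except housekeeping centring, with 75 lower in odor pools and 26 higher and 71 lower in vehicle pools. The member median became -1.15 in odor pools and -0.97 in vehicle pools under that centring, and -0.60 in odor pools under median centring. Without 1 replicate the odor pools gave 30 to 39 members higher and 43 to 46 lower with a median of -0.34 to -0.11, and the vehicle pools 34 to 37 higher and 36 to 44 lower with a median of -0.26 to 0.06. The difference between treatments gave 0 members in all of these, with medians of -0.32 to 0.04. Odor against vehicle without 1 replicate gave 0 higher and 0 to 1 lower in the arrays titled GFP+ (medians -0.08 to 0.14). In the arrays titled GFP- it gave 0 to 5 higher and 0 to 2 lower (medians 0.02 to 0.19), with fits blocked on the replicate number included. The 5 higher and 2 lower came from the blocked fit without replicate 4. Blocked fits without 1 replicate were not run in the arrays titled GFP+, so these ranges come from unlike fits. In the arrays titled GFP- the block on the replicate number gave 2 higher and housekeeping centring 1. The shares of all genes called without 1 replicate are not given here. With the replicate block, 0 members passed in the arrays titled GFP+ or in the difference between treatments, where same-numbered fraction differences correlated at 0.0729 to 0.253 and the block is not taken to pair pools.

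Of the single receptors, Olfr1221 lost its odor call between fractions under mature neuron centring (-0.82, adjusted p = 0.127) and without the pool block (adjusted p = 0.0777), and its vehicle difference, which had not passed, became -0.21 under housekeeping centring. Its odor call in the arrays titled GFP- passed without the block under housekeeping centring (2.25, adjusted p = 0.0353) and without vehicle replicate 4 (2.61, adjusted p = 0.0351). Of the other passing differences given above, 1 reversed, that of Olfr1217 in odor pools (-0.25 under housekeeping centring; limma, adjusted p = 0.260). Its call was also lost under median centring and without odor replicate 2 or 4. The odor call of Olfr1179 was lost under cyclic loess, under mature neuron centring, without the pool block and without odor replicate 1 or 2. The vehicle call of Olfr1188 was lost under mature neuron centring and without vehicle replicate 1 or 3, and that of Olfr1193 under housekeeping centring. Housekeeping centring also reversed called members whose differences are not given above, such as Olfr1239 in vehicle pools (0.70 as reported, -0.15 after centring). In all it reversed 5 of 82 calls in odor pools and 4 of 82 in vehicle pools. The further reversals listed below were of differences that had not passed. Between fractions in odor pools, housekeeping centring gave -0.67 for Olfr1197, -0.33 for Olfr1295 and -0.84 for Olfr1312, and median centring gave -0.11 for Olfr1197 and -0.28 for Olfr1312. Cyclic loess gave 0.14 for Olfr1212 and 0.051 for Olfr1260, and mature neuron centring gave 0.0033 for Olfr1202, 0.16 for Olfr1212, 0.091 for Olfr1214 and 0.10 for Olfr1260. In vehicle pools, housekeeping centring gave -0.30 for Olfr1197, -0.76 for Olfr1202, -0.043 for Olfr1212, -0.69 for Olfr1260, -0.80 for Olfr1295 and -0.56 for Olfr1306. Median centring gave -0.28 for Olfr1202, -0.21 for Olfr1260, -0.32 for Olfr1295 and -0.071 for Olfr1306. Cyclic loess gave 0.071 for Olfr1312, and mature neuron centring gave 0.14 for Olfr1214, 0.12 for Olfr1222 and 0.21 for Olfr1312. Without 1 replicate the odor pools gave -0.37 to 0.11 for Olfr1202, -0.38 to 0.34 for Olfr1212, -0.54 to 0.23 for Olfr1260 and -0.29 to 0.42 for Olfr1312, and the vehicle pools -0.38 to 0.40 for Olfr1202, -0.47 to 0.16 for Olfr1222, -0.069 to 0.43 for Olfr1260, -0.26 to 0.44 for Olfr1295 and -0.41 to 0.36 for Olfr1312. Without 1 replicate, Olfr1297 ran from -0.42 to 0.23 between treatments, from -0.17 to 0.10 between odor and vehicle in the arrays titled GFP+ and from -0.33 to 0.48 in the arrays titled GFP- (-0.051 with the replicate block and without replicate 4). Olfr1213 ran from -0.049 to 0.38 in the arrays titled GFP+, and Olfr1241 from -0.35 to 0.20 in the arrays titled GFP- (0.032 and 0.35 with the replicate block and without replicate 2 or 3). Olfr1241 was also 0.0091 and 0.036 in that fraction under housekeeping and mature neuron centring. The cause of these changes was not tested. Signal over background limits the members at or below the control median, and 4 arrays a group limit what odor differences can be called.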
